A study of Mus musculus with 10 samples.

Results

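The genes that build cholesterol and fatty acids were compared among cells made from embryonic stem cells to resemble hepatocytes, hepatocytes of adult mouse liver, and embryonic stem cells. The set held 33 listed genes: 16 enzymes of sterol synthesis, 5 genes of the SREBP switch that controls them, and 12 genes of fatty acid and glycerolipid synthesis. Each was read from the transcript cluster on the array that the platform annotation gives to that gene symbol alone, and where a symbol had several clusters the one with the highest mean over the 10 arrays was used. In this way 30 genes were measured among 22180 genes in all, 14 of the sterol enzymes, all 5 regulators and 11 of the fatty acid genes. Acat2, Idi1 and Scd2 were not analysed here, since no cluster carried their symbol alone.

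The study's title asks how natural killer cells recognise hepatic cells derived from stem cells through their receptor NKG2D. The arrays measured 3 samples of hepatocyte-like cells differentiated from mouse embryonic stem cells (labelled ES_HLC, here HLCs), 3 of adult hepatocytes from liver (Ad_Hep) and 4 of undifferentiated embryonic stem cells (labelled mESC, here ESCs). All 10 samples carry 1 strain label, C.FVB-Tg(CAG-luc, GFP)L2G85Chco of the FathJ line, which denotes luciferase and green fluorescent protein under the ubiquitously active CAG promoter, and all are labelled as below passage 20, the adult hepatocytes included. The differentiation protocol is not given in the sources used here, and the titles call the replicates biological without saying whether they came from separate cultures or animals. The p-values therefore measure the spread between these samples.

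As background, cells make cholesterol from acetyl-CoA through mevalonate, isoprenoid units, squalene and lanosterol, and make fatty acids from acetyl-CoA through malonyl-CoA. Both routes are switched on by SREBP transcription factors, which wait as precursors in the endoplasmic reticulum. SCAP escorts them to the Golgi for cleavage when sterols are low, and INSIG proteins hold SCAP back when sterols are high. The form of SREBP-1 made in liver responds to insulin and mainly drives fatty acid genes, while SREBP-2 mainly drives cholesterol genes. The liver is a main site of both routes in the adult mouse, and dividing cells make sterols and fatty acids for their own membranes.

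Promoter windows from RefSeq (GRCm38.p6) are shown first for genes whose transcript differed strongly between adult hepatocytes and the other cells and for genes whose window holds the core of the sterol regulatory element. Of the 30 measured genes, 25 had a window of 300 bases, 250 before and 50 after an annotated start, and these genes had 35 windows. The sterol core was searched as CACNCCAC, together with CCAAT, the site of the SREBP partner NF-Y, GGGCGG for Sp1 and the E-box CACGTG, each on both strands. The lines below give the 250 bases before the start, 5′ to 3′ on the gene's strand, with matches to the sterol core (CACNCCAC) and CCAAT, read on either strand, in capitals. Hmgcs1 makes the substrate of the rate-limiting enzyme of sterol synthesis, Insig1 restrains SREBP, Gpam starts glycerolipid synthesis and Sc5d acts near the end of the sterol route.
Hmgcs1 (chr13:119690101-119690350, plus strand): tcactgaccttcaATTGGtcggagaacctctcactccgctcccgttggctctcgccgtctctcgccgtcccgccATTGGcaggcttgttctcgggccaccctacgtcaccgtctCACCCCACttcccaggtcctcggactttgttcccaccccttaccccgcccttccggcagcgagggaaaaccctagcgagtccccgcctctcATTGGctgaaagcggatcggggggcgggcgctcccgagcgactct
Insig1 (chr5:28071162-28071411, plus strand): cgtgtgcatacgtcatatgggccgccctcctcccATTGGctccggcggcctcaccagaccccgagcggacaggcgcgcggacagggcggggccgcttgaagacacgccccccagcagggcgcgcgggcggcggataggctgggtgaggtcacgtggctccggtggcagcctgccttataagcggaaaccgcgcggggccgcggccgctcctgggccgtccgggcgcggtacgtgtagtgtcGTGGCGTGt
Gpam (chr19:55127239-55127488, minus strand): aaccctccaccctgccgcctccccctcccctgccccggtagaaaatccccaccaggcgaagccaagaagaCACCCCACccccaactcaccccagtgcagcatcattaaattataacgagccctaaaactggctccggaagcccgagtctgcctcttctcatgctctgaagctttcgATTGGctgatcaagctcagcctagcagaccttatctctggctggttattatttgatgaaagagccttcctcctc
Sc5d (chr9:42264301-42264550, minus strand): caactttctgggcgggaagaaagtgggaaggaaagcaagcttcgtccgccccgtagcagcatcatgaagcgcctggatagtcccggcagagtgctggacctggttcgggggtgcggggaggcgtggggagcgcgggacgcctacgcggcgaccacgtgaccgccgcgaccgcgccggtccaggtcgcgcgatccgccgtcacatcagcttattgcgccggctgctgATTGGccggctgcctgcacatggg

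The sterol core stood in 3 of the 35 windows (8.57%), those of Hmgcs1, Insig1 and Gpam, against 6.24% of all 32851 windows. CCAAT stood in 22 of the 35 windows (62.9%), against 37.4% of all windows. Matches of CCAAT were repeated, 2 or more in 1 window, in 10 of the 35 (28.6%), against 11.7% of all. GGGCGG stood in 23 of the 35 (65.7%), against 35.7%, and CACGTG in 6 of the 35 (17.1%), against 7.15%. In the lines above, Hmgcs1 shows 1 sterol core and 3 CCAAT matches, and Insig1 and Gpam 1 of each. The start used for Gpam lies 81 bases from the annotated edge of the gene. Several windows can belong to 1 gene and can overlap, and a match is a run of letters, not a measured site. Fdps, Fdft1, Sqle, Scd1 and Fads1 had no promoter window in the reference used, so their promoters were not searched.

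Some arrays stood apart before any comparison was made. HLC replicate 3 had Alb, the transcript of albumin, at 10.80 (deposited log2 level) against 4.85 and 5.14 on replicates 1 and 2, and Nanog, a pluripotency factor, at 7.12 against 5.08 and 5.09. HLC replicate 1 stood apart in the lipid genes themselves, as described below, and replicate 2 had the lowest level of cell division genes among the HLC arrays. Adult hepatocytes carried hepatocyte transcripts at high level, with Alb at 13.42 to 13.48. On the HLC arrays the mean of 12 hepatocyte markers was 5.87 to 7.07, against 11.58 to 11.64 in adult hepatocytes and 4.67 to 4.95 in ESCs. For the measured sterol, regulator and fatty acid genes, calls that changed when 1 HLC array was left out are named below. For the further gene lists and the marker lists only some such changes are named. A call given for those lists without a remark may therefore still depend on 1 HLC array. The number of arrays limits the precision, and levels are compared between cells for 1 gene at a time, never between genes. In such bulk samples fewer cells of a type and less RNA per cell cannot be told apart.

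Adult hepatocytes had higher levels than ESCs of most of these genes, and HLCs had lower levels than adult hepatocytes of most of them. Calls required a limma p under 0.05 after adjustment over all 22180 genes together with a log2 difference of at least 1, and only called genes are said to have risen or fallen. Against ESCs, 19 of the 30 genes rose in adult hepatocytes, where 11.0% of all genes rose, and 0 fell, where 15.6% of all genes fell. At an unadjusted p under 0.05, 1 of the 30 was lower (Srebf2), against 25.4% of all genes. The 19 were 7 of the 14 sterol enzymes, 4 of the 5 regulators and 8 of the 11 fatty acid genes. The median difference was 1.37, against 0.05 over all genes, and 28 of the 30 differences were above 0.

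HLCs were near ESCs in the middle of the set, with a median difference of -0.03 against -0.01 over all genes. Of the 30 genes 3 rose in HLCs, Cyp51, Sc5d and Me1, where 8.61% of all genes rose, and 4 fell, Ebp, Acacb, Scd1 and Elovl6, where 7.35% of all genes fell. These shares, 10% and 13.3% of the measured genes, rest on few genes. Of the 14 sterol enzymes 2 rose and 1 fell, with a median of 0.04, and 0 of the 5 regulators were called. Of the 11 fatty acid genes 1 rose and 3 fell (27.3%), with a median of -0.37. At an unadjusted p under 0.05, 5 of these 11 were lower, against 18.3% of all genes. Counted at an unadjusted p under 0.05, 12 of the 30 (40%) differed from ESCs, against 36.9% of all genes.

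Against adult hepatocytes, 17 of the 30 genes fell in HLCs, where 9.12% of all genes fell, and 0 rose, where 13.9% of all genes rose. At an unadjusted p under 0.05, 1 of the 30 was higher (Srebf2), against 24.8% of all genes. They were 4 of 14 sterol enzymes (Pmvk, Ebp, Sc5d and Dhcr7), 4 of 5 regulators (all but Srebf2) and 9 of 11 fatty acid genes (all but Acly and Me1). The median difference was -1.24, against -0.04 over all genes. The 3 comparisons share their arrays in pairs, so their results are set side by side and are not independent of each other.

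**Figure D1:**
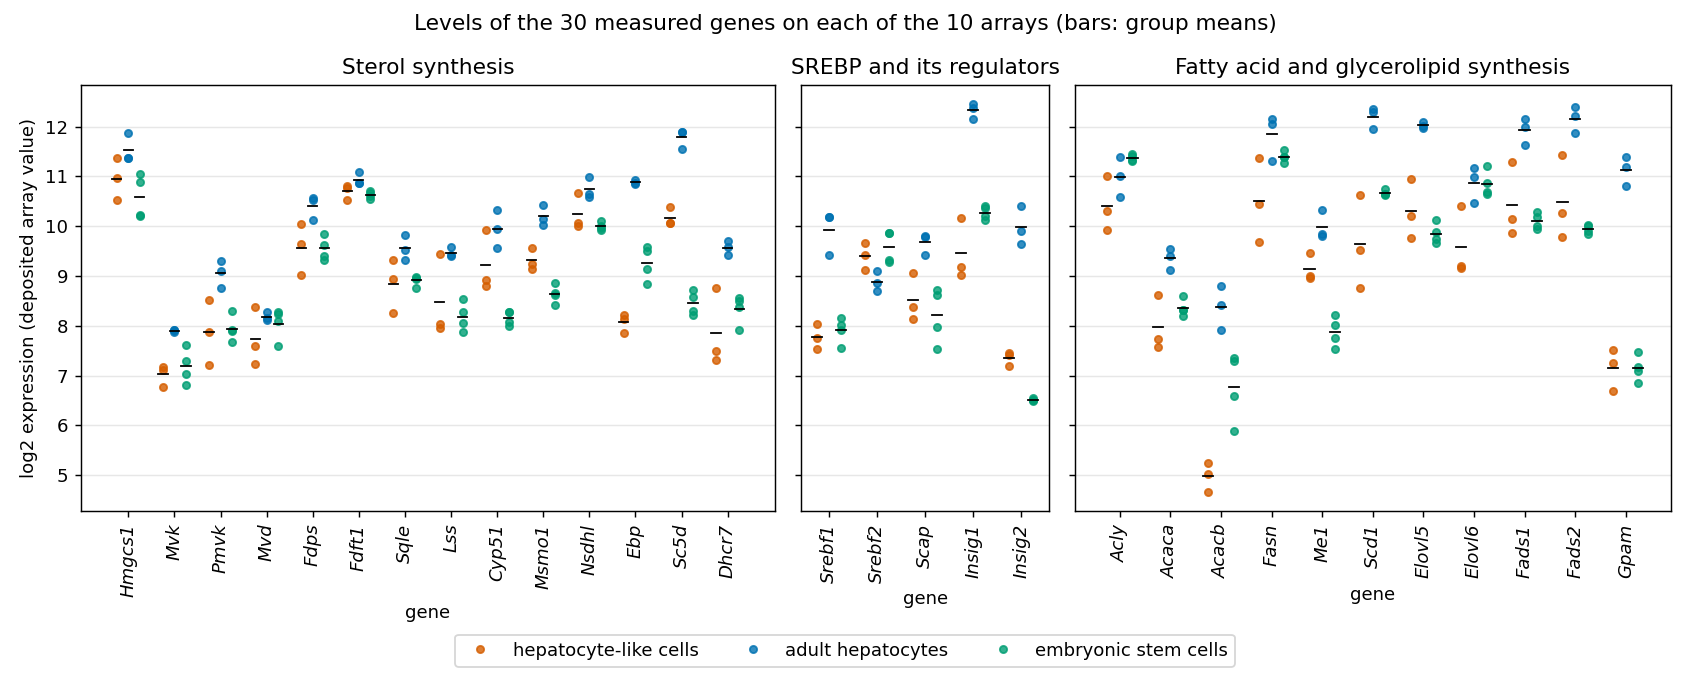
Deposited log2 level of each of the 30 measured genes on the 3 HLC, 3 adult hepatocyte and 4 ESC arrays, with each point 1 array and each bar a group mean. Adult hepatocytes lie above both other groups for Insig1, Insig2, Sc5d, Ebp and Gpam, and below both for Srebf2, while the HLC arrays are widely spread for Fasn, Fads2 and Scd1.

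**Figure D2:**
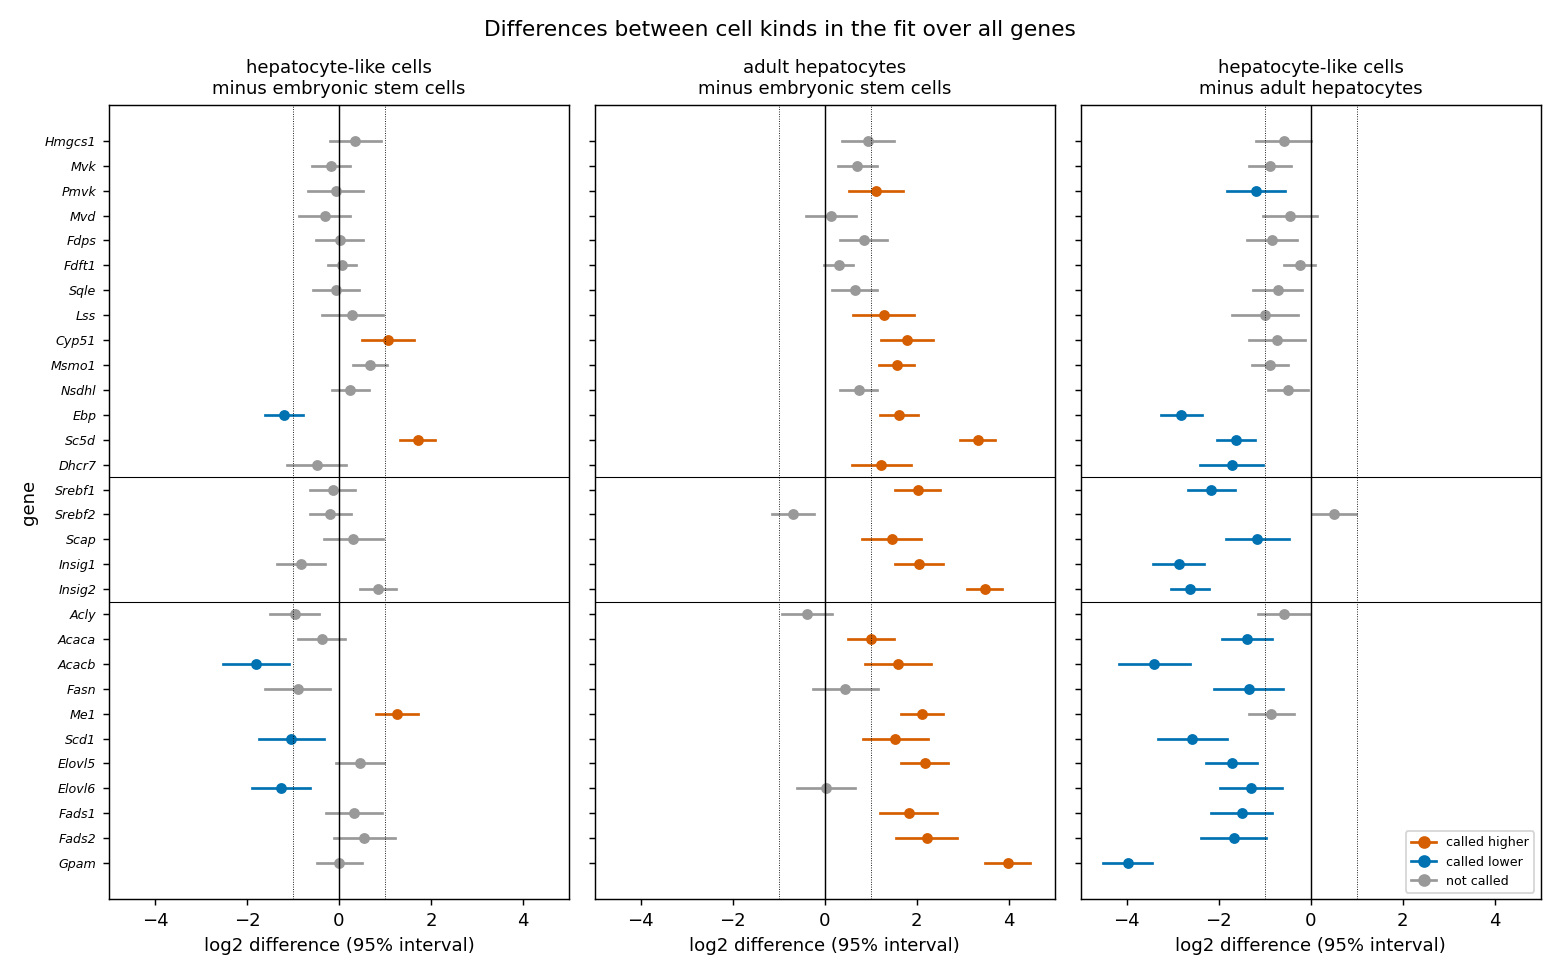
Log2 difference of each gene in the 3 comparisons with its 95% interval from the limma fit over all genes, where colours mark calls and dotted lines a difference of 1 either way. In adult hepatocytes minus ESCs 19 genes are called higher, in HLCs minus adult hepatocytes 17 are called lower, and in HLCs minus ESCs 3 are called higher and 4 lower.

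At the early steps of sterol synthesis, calls depended on the normalization. Hmgcs1 makes HMG-CoA, Mvk, Pmvk and Mvd turn mevalonate into isoprenoid units, and Fdps, Fdft1 and Sqle join these units into squalene and oxidise it. Of these 7 genes only Pmvk was called, higher in adult hepatocytes than in ESCs by 1.11 ± 0.27 (log2 difference ± SE, adjusted p = 0.00455) and lower in HLCs than in adult hepatocytes by a difference of -1.19 ± 0.29 (adjusted p = 0.0057). Over all genes 11.0% rose in the first of these comparisons and 9.12% fell in the second. Without adult hepatocyte replicate 1 the first Pmvk difference was 0.99 and was not called. With cyclic loess normalization Hmgcs1 (1.498), Mvk (1.08), Fdps (1.381) and Sqle (1.16) were called with Pmvk in adult hepatocytes over ESCs, and the same 4 were called lower in HLCs than in adult hepatocytes (-1.29 to -1.08). Pmvk read 7.21 to 8.53 in HLCs, 8.76 to 9.31 in adult hepatocytes and 7.67 to 8.29 in ESCs.

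Most of the other early enzymes sat higher in adult hepatocytes than in ESCs without passing a difference of 1. Hmgcs1 read 10.53 to 11.36 in HLCs, 11.37 to 11.86 in adult hepatocytes and 10.20 to 11.05 in ESCs, and adult hepatocytes minus ESCs was 0.95 ± 0.26 (adjusted p = 0.00974). It was 1.02 to 1.10 and was called without any 1 of 4 arrays (adult hepatocyte replicate 2 or 3, ESC replicate 1 or 3). Mvk, Fdps and Sqle differed in the same comparison by 0.71 (adjusted p = 0.00914), 0.85 (adjusted p = 0.00992) and 0.65 (adjusted p = 0.0363). Mvd (0.14, adjusted p = 0.718) and Fdft1 (0.30, adjusted p = 0.115) did not pass the test, with 95% intervals of -0.41 to 0.69 and -0.01 to 0.62. In HLCs minus ESCs all 7 lay between -0.31 for Mvd and 0.36 for Hmgcs1. Mvk read 6.77 to 7.17 in HLCs, 7.88 to 7.92 in adult hepatocytes and 6.82 to 7.61 in ESCs. Mvd read 7.22 to 8.38 in HLCs, 8.12 to 8.27 in adult hepatocytes and 7.59 to 8.28 in ESCs. HLCs and ESCs overlapped in both genes, and the adult hepatocytes were tightly grouped.

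Fdps read 9.02 to 10.04 in HLCs, 10.12 to 10.56 in adult hepatocytes and 9.33 to 9.85 in ESCs. Fdft1 read 10.53 to 10.81 in HLCs, 10.86 to 11.08 in adult hepatocytes and 10.55 to 10.70 in ESCs, and Sqle 8.26 to 9.32 in HLCs, 9.31 to 9.83 in adult hepatocytes and 8.77 to 8.97 in ESCs. In all 3 the adult hepatocytes lay above the ESCs without overlap, though only by narrow margins. The widest gap among the early enzymes in HLCs minus adult hepatocytes, after Pmvk, was that of Mvk, at -0.88 ± 0.21 (adjusted p = 0.00444).

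Later enzymes turn squalene epoxide into cholesterol through lanosterol. Lss closes the ring to lanosterol, Cyp51 removes its first methyl group, Msmo1 and Nsdhl remove the next ones, Ebp moves a ring bond, Sc5d desaturates the ring, and Dhcr7 completes cholesterol. In adult hepatocytes 6 of these 7 rose over ESCs, where 11.0% of all genes rose. The exception was Nsdhl (0.74 ± 0.19, adjusted p = 0.00549), which was called at 1.28 with cyclic loess. Lss rose by 1.28 ± 0.31 (adjusted p = 0.00417), Msmo1 by 1.56 ± 0.17 (adjusted p = 7.02e-06) and Dhcr7 by 1.23 ± 0.30 (adjusted p = 0.00422).

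Sc5d had the largest difference among the sterol enzymes. It read 10.07, 10.06 and 10.38 in HLCs, 11.90, 11.55 and 11.90 in adult hepatocytes, and 8.71, 8.22, 8.58 and 8.30 in ESCs. The 3 groups did not overlap, with HLCs between the others. Sc5d rose in adult hepatocytes over ESCs by 3.33 ± 0.17, 10.1-fold (adjusted p = 6.18e-09), and in HLCs over ESCs by 1.71 ± 0.17, 3.28-fold (adjusted p = 1.17e-05). It was still 3.07-fold lower in HLCs than in adult hepatocytes, a difference of -1.62 ± 0.19 (adjusted p = 1.62e-05).

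Cyp51, a cytochrome P450 of the lanosterol step, was the other sterol enzyme that rose in HLCs. It read 9.91, 8.93 and 8.80 in HLCs, 10.32, 9.56 and 9.95 in adult hepatocytes, and 8.27, 8.07, 8.27 and 7.99 in ESCs. HLC replicate 1 lay among the adult hepatocytes and replicates 2 and 3 below them, and both groups lay above every ESC array. It rose by 1.07 ± 0.26 over ESCs in HLCs (adjusted p = 0.00739) and by 1.80 ± 0.26 in adult hepatocytes (adjusted p = 8.21e-05). Without HLC replicate 1 the first difference was 0.72 and was not called, and with arrays centred on their medians it was 0.99.

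Ebp moved the other way in HLCs. It read 7.86, 8.21 and 8.14 in HLCs, 10.93, 10.84 and 10.87 in adult hepatocytes, and 8.83, 9.49, 9.14 and 9.58 in ESCs. HLCs had the lowest levels and adult hepatocytes the highest, with no overlap. Ebp fell in HLCs by 1.19 ± 0.19 relative to ESCs (adjusted p = 0.00043), and the difference from adult hepatocytes was -2.81 ± 0.20, 7.01-fold lower (adjusted p = 1.98e-07). In adult hepatocytes it rose over ESCs by 1.62 ± 0.19 (adjusted p = 1.37e-05). Thus Sc5d and Ebp, which act on successive intermediates, lay on opposite sides of the ESCs in HLCs.

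Dhcr7 was lower in HLCs than in adult hepatocytes by a difference of -1.71 ± 0.32 (adjusted p = 0.000824), with 7.32 to 8.75 in HLCs, 9.42 to 9.70 in adult hepatocytes and 7.92 to 8.55 in ESCs. Lss (7.96 to 9.44 in HLCs, 9.40 to 9.57 in adult hepatocytes, 7.88 to 8.53 in ESCs) was just short of a call in HLCs minus adult hepatocytes, at -0.99 ± 0.33 (adjusted p = 0.0318). Msmo1 read 9.14 to 9.56 in HLCs, 10.03 to 10.43 in adult hepatocytes and 8.42 to 8.86 in ESCs, and its 3 groups did not overlap. Nsdhl read 10.01 to 10.67 in HLCs, 10.59 to 10.98 in adult hepatocytes and 9.92 to 10.10 in ESCs. In HLCs minus adult hepatocytes Msmo1 differed by -0.88 (adjusted p = 0.00194) and Nsdhl by -0.49 (adjusted p = 0.0722). Msmo1 exceeded ESCs in HLCs by 0.68 ± 0.17 (adjusted p = 0.00905), short of a difference of 1.

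Of the SREBP genes, Srebf1 was called in 2 comparisons and Srebf2 in none. Srebf1, which encodes SREBP-1, read 8.03, 7.53 and 7.75 in HLCs, 9.43, 10.18 and 10.18 in adult hepatocytes, and 7.56, 8.16, 7.92 and 8.01 in ESCs. Adult hepatocytes lay above every other array, and the other groups overlapped. It rose by 2.02 ± 0.22 in adult hepatocytes over ESCs, 4.05-fold (adjusted p = 7.23e-06), and was lower in HLCs than in adult hepatocytes by a difference of -2.16 ± 0.24 (adjusted p = 1.06e-05). HLCs minus ESCs was -0.14 ± 0.22 (adjusted p = 0.729, 95% interval -0.62 to 0.34).

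Srebf2, which encodes SREBP-2, read 9.67, 9.11 and 9.41 in HLCs, 8.86, 9.10 and 8.70 in adult hepatocytes, and 9.31, 9.86, 9.27 and 9.87 in ESCs. All 3 adult hepatocyte arrays lay below all 7 others, by a narrow margin for adult replicate 2. Adult hepatocytes minus ESCs was -0.69 ± 0.21 (adjusted p = 0.0163), short of a difference of 1, and HLCs minus adult hepatocytes was 0.51 ± 0.22 (adjusted p = 0.0962). With cyclic loess these differences shrank to -0.17 (adjusted p = 0.583) and 0.068 (adjusted p = 0.867). It was the only gene of the 30 with a positive difference in HLCs minus adult hepatocytes. Whether Srebf1 and Srebf2 differ in their response was not tested as such.

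The genes that hold SREBP back were the regulators with the largest differences. Insig1, itself a target of SREBP, read 10.17, 9.01 and 9.19 in HLCs, 12.37, 12.15 and 12.45 in adult hepatocytes, and 10.37, 10.20, 10.40 and 10.12 in ESCs. Adult hepatocytes lay well above all others, and HLC replicate 1 lay within the ESCs. Insig1 rose in adult hepatocytes over ESCs by 2.05 ± 0.24 (adjusted p = 1.32e-05). HLCs were 7.30-fold lower than adult hepatocytes, a difference of -2.87 ± 0.26 (adjusted p = 1.57e-06), and differed from ESCs by -0.82 ± 0.24 (adjusted p = 0.022). Without HLC replicate 1 the last difference was -1.17 and was called.

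Insig2, whose liver transcript is known to be repressed by insulin, read 7.42, 7.20 and 7.46 in HLCs, 10.40, 9.64 and 9.91 in adult hepatocytes, and 6.50, 6.54, 6.52 and 6.49 in ESCs. The groups did not overlap, and HLCs lay nearer the ESCs. Over ESCs, Insig2 rose in adult hepatocytes by 3.47 ± 0.18, 11.1-fold (adjusted p = 5.23e-09). In HLCs it was 6.17-fold lower than in adult hepatocytes (-2.63 ± 0.19, adjusted p = 2.05e-07) and above ESCs by 0.85 ± 0.18 (adjusted p = 0.00294), short of a call. Insig1 and Insig2 thus had differences of opposite sign in HLCs minus ESCs.

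Scap, the escort of SREBP, read 8.13 to 9.05 in HLCs, 9.42 to 9.81 in adult hepatocytes and 7.53 to 8.72 in ESCs. It rose in adult hepatocytes over ESCs by 1.46 ± 0.30 (adjusted p = 0.00123), and HLCs minus adult hepatocytes was -1.15 ± 0.32 (adjusted p = 0.0115). Scap was the only measured gene of the set with 2 clusters, and with their mean the differences were 0.79 and -0.80 and neither was called.

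Fatty acid synthesis starts from citrate, which Acly splits to acetyl-CoA, and Me1 supplies NADPH. Acly was the only fatty acid gene with a negative difference in adult hepatocytes minus ESCs, at -0.38 ± 0.25 (adjusted p = 0.255). It read 9.93 to 11.02 in HLCs, 10.58 to 11.38 in adult hepatocytes and 11.31 to 11.45 in ESCs, and HLCs minus ESCs was -0.96 ± 0.25 (adjusted p = 0.0102). Me1 read 9.46, 9.00 and 8.96 in HLCs, 9.84, 9.81 and 10.33 in adult hepatocytes, and 7.54, 8.01, 7.76 and 8.21 in ESCs. The 3 groups did not overlap, and Me1 was the only fatty acid gene that rose in HLCs over ESCs, by 1.26 ± 0.21 (adjusted p = 0.000532), beside 2.11 ± 0.21 in adult hepatocytes (adjusted p = 2.63e-06).

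The acetyl-CoA carboxylases make malonyl-CoA, Acaca mainly for synthesis and Acacb mainly at mitochondria, where malonyl-CoA restrains fatty acid oxidation. Acaca read 8.62, 7.58 and 7.74 in HLCs, 9.12, 9.40 and 9.55 in adult hepatocytes, and 8.60, 8.31, 8.19 and 8.31 in ESCs. Adult hepatocytes lay above all others, with a difference from ESCs of 1.01 ± 0.23 (adjusted p = 0.00344) that is barely past 1, and HLCs minus adult hepatocytes was -1.38 ± 0.25 (adjusted p = 0.000735). Without any 1 of 5 arrays (adult hepatocyte replicate 2 or 3, ESC replicate 2, 3 or 4) the first difference was 0.91 to 0.99 and was not called.

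Acacb separated the groups more widely. It read 5.24, 4.67 and 5.03 in HLCs, 7.91, 8.41 and 8.80 in adult hepatocytes, and 5.89, 7.28, 6.58 and 7.35 in ESCs. HLCs were lowest without overlap, and ESCs were widely spread. Acacb fell in HLCs by 1.80 ± 0.33 relative to ESCs (adjusted p = 0.00117), and the difference from adult hepatocytes was -3.40 ± 0.35 (adjusted p = 6.41e-06). The HLC levels lie below 5.5, the level taken here as dim, so the size of these differences is uncertain. In adult hepatocytes Acacb rose over ESCs by 1.60 ± 0.33 (adjusted p = 0.0015).

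Fasn, the fatty acid synthase, differed little between adult hepatocytes and ESCs, at 0.45 ± 0.32 (adjusted p = 0.311, 95% interval -0.26 to 1.15). It read 11.36, 10.45 and 9.69 on HLC replicates 1 to 3, 11.31 to 12.16 in adult hepatocytes and 11.27 to 11.54 in ESCs, so that HLC replicate 1 lay within both other groups and replicates 2 and 3 below them. HLCs minus adult hepatocytes was -1.34 ± 0.35 (adjusted p = 0.00801). With cyclic loess adult hepatocytes minus ESCs was 1.002 (adjusted p = 0.0328) and was called. Fasn was the only called gene of the 17 whose 2 groups overlapped.

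Scd1, the stearoyl-CoA desaturase that makes oleate, read 10.62, 8.75 and 9.52 in HLCs, 12.29, 11.95 and 12.36 in adult hepatocytes, and 10.74, 10.65, 10.64 and 10.63 in ESCs. Adult hepatocytes were highest, the HLC arrays were widely spread, and HLC replicate 1 lay just below the lowest ESC array. It rose in adult hepatocytes over ESCs by 1.53 ± 0.32 (adjusted p = 0.0017), and HLCs were 5.92-fold below adult hepatocytes (-2.57 ± 0.35, adjusted p = 6.39e-05). The difference of HLCs from ESCs, -1.03 ± 0.32 (adjusted p = 0.0298), depended on single arrays and on the processing. It was -0.59 (adjusted p = 0.138) without HLC replicate 2 and -0.98 (adjusted p = 0.0797) without replicate 3, and with any ESC array left out its adjusted p was 0.0557 to 0.0602. With all arrays kept it was -0.97 with cyclic loess and -0.99 with array weights, and was not called. Nor was it called on the 2 groups alone (adjusted p = 0.0569) or at an adjusted p under 0.01.

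The elongases differed from each other. Elovl5, which extends polyunsaturated chains, read 10.95, 9.76 and 10.21 in HLCs, 11.96, 12.10 and 12.01 in adult hepatocytes, and 9.74, 10.12, 9.65 and 9.89 in ESCs. Adult hepatocytes lay above all others, and the other groups overlapped. It rose in adult hepatocytes over ESCs by 2.17 ± 0.24, 4.50-fold (adjusted p = 7.06e-06), and HLCs minus adult hepatocytes was -1.71 ± 0.25 (adjusted p = 0.000145).

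Elovl6, which extends palmitate, read 10.40, 9.17 and 9.19 in HLCs, 10.99, 10.46 and 11.17 in adult hepatocytes, and 11.21, 10.69, 10.86 and 10.64 in ESCs. Here adult hepatocytes and ESCs overlapped and HLCs lay below both. The difference of adult hepatocytes from ESCs was 0.02 ± 0.29 (adjusted p = 0.958, 95% interval -0.61 to 0.66). Elovl6 fell in HLCs by 1.26 ± 0.29 relative to ESCs (adjusted p = 0.00521) and by 1.29 ± 0.31 relative to adult hepatocytes (adjusted p = 0.00542).

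Fads1 and Fads2, the desaturases of polyunsaturated fatty acid synthesis, ran close together. Fads1 read 11.29, 10.15 and 9.86 in HLCs, 11.63, 12.16 and 11.99 in adult hepatocytes, and 10.01, 10.28, 9.94 and 10.19 in ESCs. Fads2 read 11.43, 10.26 and 9.78 in HLCs, 11.87, 12.40 and 12.21 in adult hepatocytes, and 9.99, 9.85, 9.91 and 10.02 in ESCs. For both genes adult hepatocytes lay above all others, HLC replicate 1 lay between the adult hepatocytes and the ESCs, and HLC replicate 3 lay below every ESC array.

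In adult hepatocytes Fads1 rose over ESCs by 1.82 ± 0.28 (adjusted p = 0.000152) and Fads2 by 2.21 ± 0.30 (adjusted p = 5.22e-05). HLCs minus adult hepatocytes was -1.49 ± 0.30 for Fads1 (adjusted p = 0.00165) and -1.67 ± 0.33 for Fads2 (adjusted p = 0.00123).

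Gpam, the mitochondrial acyltransferase that starts glycerolipid synthesis, had the largest difference of the set. It read 7.51, 6.69 and 7.25 in HLCs, 10.81, 11.19 and 11.39 in adult hepatocytes, and 7.09, 7.48, 7.17 and 6.85 in ESCs. Adult hepatocytes lay far above both other groups, which overlapped. Over ESCs, Gpam rose in adult hepatocytes by 3.98 ± 0.23, 15.8-fold (adjusted p = 1.31e-08), and HLCs were 15.8-fold below adult hepatocytes (-3.98 ± 0.24, adjusted p = 3.07e-08). HLCs minus ESCs was 0.00 ± 0.23 (95% interval -0.49 to 0.49).

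The HLC arrays disagreed with each other in these genes more than in others. The median SD among the 3 HLC arrays was 0.53 over the 30 genes, against 0.24 over all genes. In adult hepatocytes these medians were 0.23 and 0.22, and in ESCs 0.23 and 0.21. Replicate 1 was the highest of the 3 in 25 of the 30 genes (83.3%), where it was highest in 31.2% of all genes.

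Replicate 1 was highest in 11 of 14 sterol enzymes, 3 of 5 regulators and 11 of 11 fatty acid genes, and its median excess over the mean of replicates 2 and 3 was 0.71, against 0.01 over all genes. The excess was largest for Scd1 (1.49), Lss (1.45), Fads2 (1.41) and Dhcr7 (1.34). It was negative for Ebp (-0.32), Scap (-0.22) and Sc5d (-0.15). This pattern was singled out after the values were seen and carries no test.

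**Figure D3:**
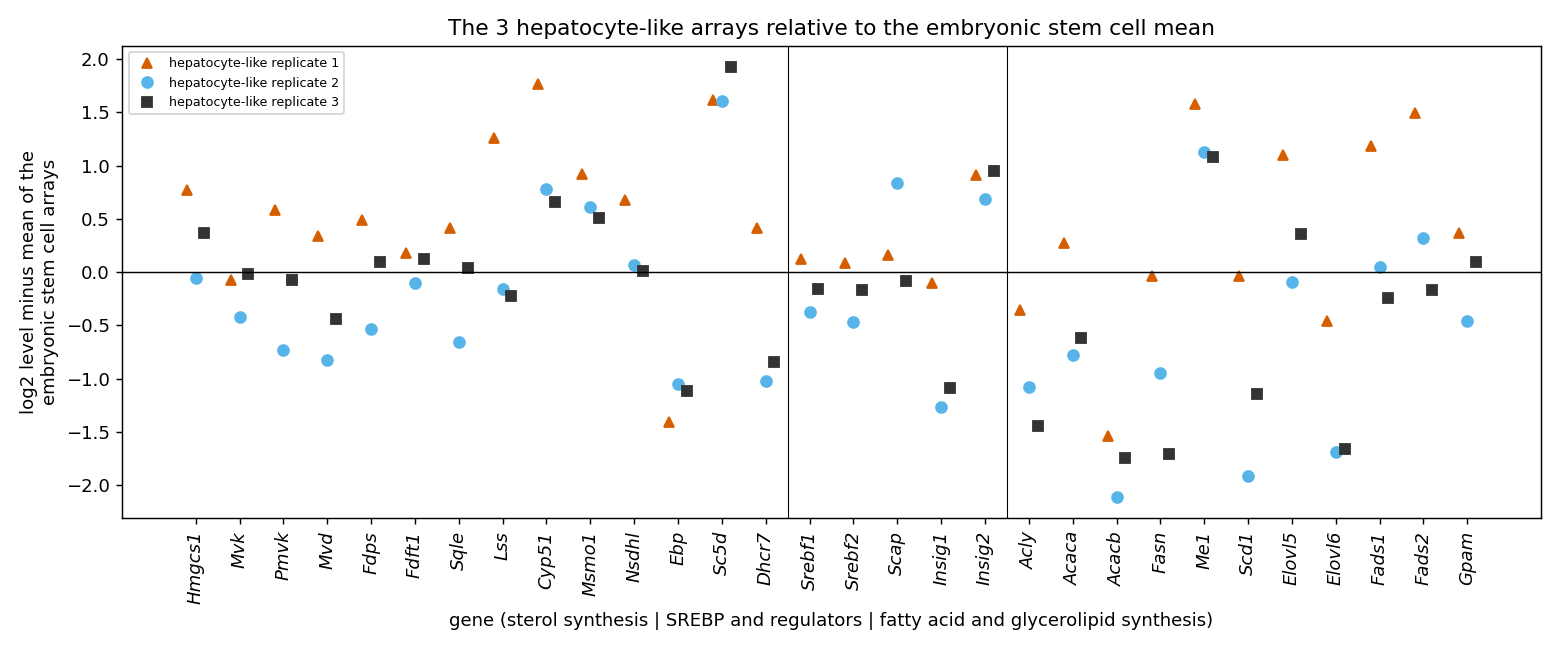
Log2 level of each gene on the 3 HLC arrays minus the mean of the 4 ESC arrays, in sterol, regulator and fatty acid order. Replicate 1 (triangles) is the highest of the 3 in 25 of 30 genes, and all 3 arrays lie above 0 for Cyp51, Sc5d, Msmo1, Insig2 and Me1 and below 0 for Ebp, Acacb and Elovl6, among others.

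The mean level of the 14 sterol enzymes was 9.42, 8.67 and 8.92 on HLC replicates 1 to 3, against 9.85 to 10.16 in adult hepatocytes and 8.82 to 8.91 in ESCs. That of the 11 fatty acid genes was 9.81, 8.80 and 8.83 on the same HLC arrays, against 10.76 to 11.21 in adult hepatocytes and 9.40 to 9.58 in ESCs. Replicate 1 thus lay above the ESCs in both means, and replicates 2 and 3 lay below them in the fatty acid mean.

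Marker lists also differed among these replicates, in different orders. The mean of 12 fibroblast and stellate cell markers was 9.30, 8.53 and 7.42 on HLC replicates 1 to 3, against 5.90 to 6.004 in adult hepatocytes and 4.91 to 5.11 in ESCs. Of the 12, 9 rose in HLCs over ESCs, where 8.61% of all genes rose. Relative to adult hepatocytes 8 rose and 2 fell in HLCs, where 13.9% of all genes rose and 9.12% fell. The 2 lower in HLCs were Lrat (3.97 to 4.66, against 7.74 to 8.24) and Dcn (5.85 to 7.95, against 8.61 to 9.59). The mean of 11 cell division genes was 9.23, 7.64 and 9.09 on the same arrays, against 5.56 to 5.73 in adult hepatocytes and 9.85 to 10.26 in ESCs. Replicate 1 was highest in both lists, and replicates 2 and 3 changed places between them. It was lowest in the means of the hepatocyte (5.87, 6.28 and 7.07), ESC (4.95, 4.97 and 5.45) and adipocyte markers (4.73, 5.07 and 4.95). In the Kupffer cell (4.84, 4.85 and 4.80) and endothelial means (5.49, 5.88 and 5.38) it lay between the others. Without HLC replicate 1, 2 or 3 in turn, 8, 10 and 10 of the fibroblast and stellate markers rose in HLCs over ESCs. Of the cell division genes 10, 3 and 6 fell, against 7 with all arrays. Without these arrays 8.58% to 8.99% of all genes rose and 6.52% to 8.16% fell. The part of these cells in the spread of the lipid genes was not tested.

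**Figure D4:**
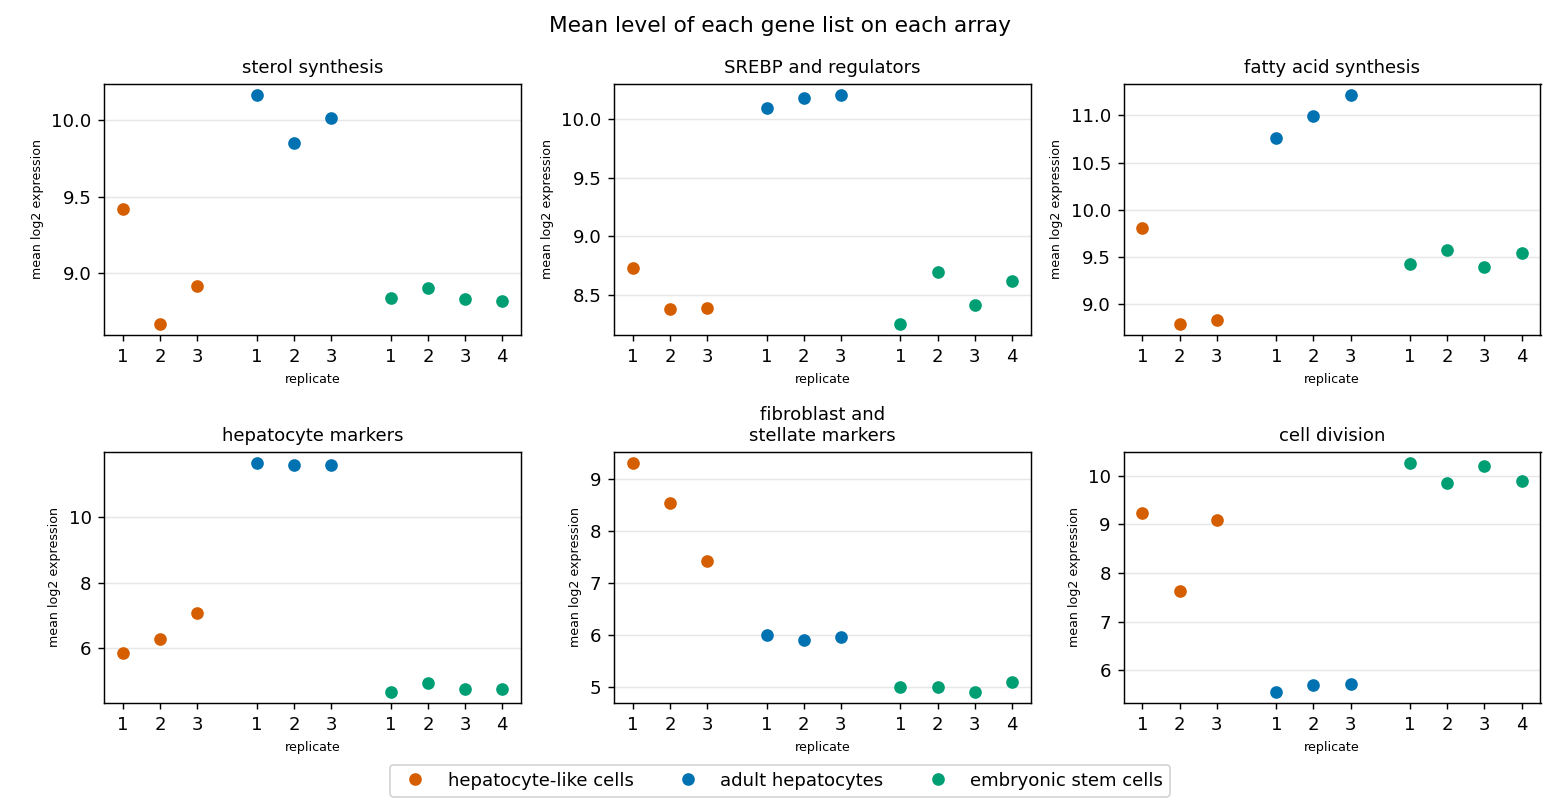
Mean log2 level of the sterol, regulator and fatty acid genes and of 3 marker lists on each of the 10 arrays, numbered by replicate within each group. HLC replicate 1 leads its group in the sterol (9.42) and fatty acid (9.81) means, while the hepatocyte markers lead in replicate 3 (7.07).

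The counts shifted with the HLC array left out. Without replicate 1, 22 of the 30 genes were lower in HLCs than in adult hepatocytes, 8 of them sterol enzymes and 10 fatty acid genes, with a median of -1.54. The genes added were Fdps, Lss, Cyp51, Msmo1 and Me1. Without replicate 2 the count was 16, without Pmvk (-0.86), and without replicate 3 it was 15, without Scap (-0.96) and Fasn (-0.94). Of all genes 9.04%, 9.13% and 9.33% were lower without replicates 1, 2 and 3 in turn.

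In HLCs against ESCs, leaving out replicate 1 gave 2 genes higher and 7 lower, with Cyp51 lost and Insig1 (-1.17), Acly (-1.26) and Fasn (-1.33) added below. Leaving out replicate 2 or replicate 3 gave 3 higher and 3 lower each time, with Scd1 lost. Of all genes 8.58% were higher and 6.52% lower without replicate 2, and 8.61% and 8.16% without replicate 3. The calls of Sc5d and Me1 (higher) and of Ebp, Acacb and Elovl6 (lower) held with each of the 10 arrays left out in turn.

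The adult hepatocyte arrays were closer, yet the sterol and fatty acid genes took different orders on them. Adult replicate 1 was the highest of its group in 9 of 14 sterol enzymes and the lowest in 8 of 11 fatty acid genes. Adult replicate 3 was the highest in 8 of 11 fatty acid genes and replicate 2 the lowest in 10 of 14 sterol enzymes. Over all genes replicate 1 was highest in 38.6% and lowest in 37.9%, replicate 3 highest in 27.4% and replicate 2 lowest in 30.2%. This order too was seen after the values and has no test.

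Other enzymes in or beside the sterol route gave a mixed picture. Of 9 listed, 6 were measured. Over all genes 11.0% rose and 15.6% fell in adult hepatocytes over ESCs, and 8.61% rose and 7.35% fell in HLCs over ESCs. In HLCs relative to adult hepatocytes 13.9% of all genes rose and 9.12% fell. In adult hepatocytes over ESCs 3 rose, Acat1 (3.32 ± 0.23), which makes acetoacetyl-CoA in mitochondria, Hsd17b7 (3.12 ± 0.16), which acts with Nsdhl in removing sterol methyl groups, and Tm7sf2 (2.11 ± 0.25), a sterol reductase. The 2 that fell were Lbr (-2.03 ± 0.28), a nuclear envelope protein with the same reductase activity as Tm7sf2, and Ggps1 (-1.31), which makes geranylgeranyl chains for proteins.

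In HLCs over ESCs Hsd17b7 rose by 2.21 ± 0.16 and Acat1 by 1.11 ± 0.23, and 0 of the 6 fell, with 1 lower at an unadjusted p under 0.05, against 18.3% of all genes. Without HLC replicate 1 Acat1 was 0.85 and not called, and Lbr fell by 1.01 without replicate 1 and by 1.12 without replicate 3. In HLCs minus adult hepatocytes, Tm7sf2 and Acat1 were lower at -2.39 ± 0.26 and -2.21 ± 0.24, while Ggps1 and Lbr were higher at 1.87 ± 0.33 and 1.19 ± 0.30. The last was 0.91 and not called without HLC replicate 3. Tm7sf2 and Lbr, which share a reaction, therefore ran in opposite directions in adult hepatocytes.

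Genes that handle cholesterol rather than make it were also counted. Of 16 measured (21 listed), 12 rose and 1 fell in adult hepatocytes over ESCs, where 11.0% of all genes rose and 15.6% fell. In HLCs over ESCs 3 rose and 0 fell, where 8.61% of all genes rose and 7.35% fell. In HLCs relative to adult hepatocytes 2 rose and 12 fell, where 13.9% of all genes rose and 9.12% fell. Cyp7a1, the rate-limiting enzyme of bile acid synthesis, rose in adult hepatocytes over ESCs by 7.89 ± 0.19. The plasma enzyme Lcat, which esterifies cholesterol, rose by 6.63 ± 0.15, the bile acid enzyme Cyp27a1 by 5.87 ± 0.19 and the lysosomal lipase Lipa by 5.46 ± 0.17. The ESC means of Cyp7a1 (3.06), Lcat (5.15) and Cyp27a1 (4.86) lie below the dim level of 5.5, so the size of their differences is uncertain.

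In HLCs Cyp7a1 lay at 2.79 to 3.14, in the dim range, with a difference from adult hepatocytes of -8.00 ± 0.21. Cyp27a1, Lcat and the bile acid enzyme Cyp8b1 differed there by -6.05 ± 0.20, -5.92 ± 0.16 and -4.60 ± 0.21. The HLC means of Cyp7a1 (2.95), Cyp27a1 (4.67) and Cyp8b1 (5.17) are dim, and the size of these differences is uncertain too. Lipa rose in HLCs over ESCs by 3.07 ± 0.17. Abcg1, a cholesterol exporter, and Npc1, which moves cholesterol out of lysosomes, rose there by 1.16 ± 0.39 and 1.02 ± 0.20. Abcg1 was 0.87 and not called without HLC replicate 2 or 3, and Npc1 was 0.95 and not called without replicate 3.

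Of the further genes that control SREBP, some were called in adult hepatocytes over ESCs and none in HLCs over ESCs. Of 7 measured (8 listed), 3 rose in adult hepatocytes over ESCs, Pgrmc1 (2.63 ± 0.14), which binds INSIG and SCAP, and the ubiquitin ligases Rnf139 (1.17 ± 0.16) and Syvn1 (1.09 ± 0.20). Over all genes 11.0% rose in that comparison, beside 42.9% of these 7. Of the 7, 0 fell, where 15.6% of all genes fell. At an unadjusted p under 0.05, 3 of the 7 were lower, against 25.4% of all genes. In HLCs 0 of the 7 were called against ESCs, with 3 at an unadjusted p under 0.05 (42.9%, against 36.9% of all genes). Relative to adult hepatocytes Pgrmc1 fell by 2.29 ± 0.15 and Mbtps2, a protease that releases SREBP, rose by 1.06 ± 0.20. There 9.12% of all genes fell and 13.9% rose. Without HLC replicate 1 or 3 Mbtps2 was 0.98 or 0.99 and was not called.

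Of 30 other fatty acid genes measured (33 listed), 16 rose and 3 fell in adult hepatocytes over ESCs. Over all genes 11.0% rose and 15.6% fell there. Thrsp, a lipogenic protein of liver and fat, rose by 5.84 ± 0.18, the polyunsaturated chain elongase Elovl2 by 5.45 ± 0.16, the acyl-CoA synthetase Acsl5 by 5.16 ± 0.14, and Mlxipl, which encodes the glucose-responsive lipogenic factor ChREBP, by 3.77 ± 0.22. In HLCs relative to adult hepatocytes 4 rose and 13 fell, where 13.9% of all genes rose and 9.12% fell. Thrsp was at -6.38 ± 0.20, Elovl2 at -6.10 ± 0.17, Mlxipl at -4.74 ± 0.23 and Acsl5 at -3.88 ± 0.15. The HLC mean of Thrsp (5.43) is dim, and the size of its difference is uncertain.

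In HLCs over ESCs 5 of these 30 rose (16.7%, against 8.61% of all genes) and 2 fell (6.67%, against 7.35%). Without HLC replicate 3, 6 rose and 0 fell, where 8.61% of all genes rose and 8.16% fell. The largest was Fads3, a relative of Fads1 and Fads2, which rose by 3.79 ± 0.17, with means of 9.43 in HLCs and 5.64 in ESCs. Acsl4, an acyl-CoA synthetase for arachidonic acid, rose by 2.25 ± 0.26, the elongase Elovl1 by 2.19 ± 0.17 and the dehydratase Hacd1 by 1.61 ± 0.22.

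Of 15 further glycerolipid genes, 7 rose and 3 fell in adult hepatocytes over ESCs, where 11.0% of all genes rose and 15.6% fell. Dgat2, which makes triglyceride, rose by 6.10 ± 0.31, the phosphatidate phosphatase Lpin2 by 3.48 ± 0.25, and the acyltransferases Gpat3 and Agpat2 by 3.21 ± 0.46 and 2.06 ± 0.20. In HLCs over ESCs 3 rose (20%, against 8.61% of all genes), the acyltransferase Agpat4 (2.61 ± 0.27), Dgat2 (2.12 ± 0.31) and Lpin2 (1.15 ± 0.25). There 1 fell (6.67%, against 7.35% of all genes), Gpat2, a relative of Gpam, by 1.55 ± 0.18. Relative to adult hepatocytes 2 rose and 7 fell in HLCs, where 13.9% of all genes rose and 9.12% fell. Dgat2 was at -3.98 ± 0.33, Agpat4 at 3.54 ± 0.29, Agpat2 at -2.65 ± 0.21 and Lpin2 at -2.33 ± 0.27. Without HLC replicate 2 Lpin2 exceeded ESCs by 0.96 and was not called. The means of Gpat3 in ESCs, Gpat2 in HLCs (4.58) and Agpat4 in adult hepatocytes (5.13) are dim, so the size of their differences is uncertain.

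Markers of liver cells other than hepatocytes were also higher in the adult samples. In adult hepatocytes over ESCs, where 11.0% of all genes rose and 15.6% fell, 10 of 12 Kupffer cell and macrophage markers rose and 1 fell. Their mean was 4.80 to 4.85 in HLCs, 6.22 to 6.52 in adult hepatocytes and 4.78 to 4.91 in ESCs, and Clec4f, which marks Kupffer cells, read 6.89 to 7.35 in adult hepatocytes. Of 12 endothelial markers 9 rose and 1 fell, with a mean of 5.38 to 5.88 in HLCs, 8.00 to 8.18 in adult hepatocytes and 5.63 to 5.91 in ESCs, and Stab2 of the liver sinusoids read 7.28 to 8.19 in adult hepatocytes. The part of these cells in the adult levels was not tested.

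Fat cells make the same lipid enzymes, so adipocyte markers were read as well. Of 7 measured (8 listed), the defining marker Adipoq lay at 3.47 to 4.30 on all 10 arrays, in the dim range, as did Lep at 3.40 to 4.59. The mean of the 7 was 4.73 to 5.07 in HLCs, 4.76 to 4.96 in adult hepatocytes and 4.26 to 4.42 in ESCs. Pparg rose over ESCs by 2.11 ± 0.24 in HLCs and by 1.90 ± 0.24 in adult hepatocytes, and Fabp4 rose in HLCs by 2.15 ± 0.45. Both are dim in ESCs. The HLC mean of Fabp4 (5.36) is dim too, with 3.97, 5.56 and 6.54 on replicates 1 to 3. ESC markers averaged 4.95 to 5.45 in HLCs, 4.73 to 4.97 in adult hepatocytes and 9.18 to 9.41 in ESCs. Of these 12, 11 fell in HLCs relative to ESCs, where 7.35% of all genes fell.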

How the data were processed

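Total RNA, isolated with TRIzol and column-purified per the labels' protocols, was biotin-labelled by the Affymetrix protocol and measured on 10 arrays. The authors deposited 1 table of log2 values for 41345 transcript clusters. The log2 scale was inferred from the range of 1.27 to 13.58 and array medians between 4.91 and 5.07. Per the submitters' processing notes, RMA, Transcriptome Analysis Console, R 3.3.1 and oligo 1.38.0 were used, with no role stated. At which level RMA summarised probes, and on which genome build, is not given in the sources used here. No background signal comes with these values, so no probe was tested against background, and a level under 5.5 is called dim.

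The platform annotation gives 1 symbol to 23521 clusters, several to 1814 and none to 16010, and only the first kind was named. Per symbol the cluster with the highest mean was kept, which left 22180 genes. Group means were fitted with limma 3.58.1 (lmFit and eBayes, 2-sided, R 4.3.3) in 1 fit of all 10 arrays without covariates (7 residual and 5.34 prior degrees of freedom), with Benjamini-Hochberg adjustment over the 22180 genes. The scripts were tested on simulated data. Python 3.11.15 with matplotlib 3.10.9 drew the figures.

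The members and lists were chosen with earlier results of these data known. Values on each array are given for the pairs Srebf1 and Srebf2, Insig1 and Insig2, Acaca and Acacb, Elovl5 and Elovl6, Fads1 and Fads2, for Scd1, and for the top 4 called members in each direction of each comparison. The remaining members are given by range, and other lists by up to 4 called genes each in order of size. Fasn on the HLC arrays, the genes behind a changed count and the order of replicates were chosen once their values had been seen.

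Each result was recomputed with cyclic loess, with a repeated quantile normalization, with medians centred, without dim genes, with averaged clusters, with the cluster of largest interquartile range, with array weights, with a robust trended variance, on the 2 groups alone, with replicate number as a block, at other thresholds, and without each array in turn. Counts of the other lists without each HLC array were added after seeing the data.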

Additional observations from a re-analysis of the deposited data

Results flagged for a closer look

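Dixon's test, applied to the 4 ESC arrays for each of the 30 genes, singled out 2 values. Sqle was at 8.77 on replicate 4, below the other arrays, the nearest of which read 8.94. Scd1 was at 10.74 on replicate 1, above the other arrays, the nearest of which read 10.65. Chance singles out about 1 in 20 such groups. Groups of 3 were not tested in this way.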

How the results depend on the processing

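The call counts and medians of the 30 genes stayed close to their values (counts within 1.5 times) under 12 alternatives other than leaving out an array, except as follows. With cyclic loess, adult hepatocytes minus ESCs gave 12 sterol enzymes higher and a median of 1.82, HLCs minus adult hepatocytes gave 26 genes and 11 sterol enzymes lower and a median of -1.67, and the median of HLCs minus ESCs turned to 0.045. Over all genes this setting moved the share of higher calls to 53.6%, against 41.5%, in adult hepatocytes minus ESCs, and to 49%, against 60.4%, in HLCs minus adult hepatocytes. It called 2975 of all genes higher in the former, against 2443, and 2413 lower in the latter, against 2023. With no minimum difference, adult hepatocytes minus ESCs gave 12 sterol enzymes higher and 1 gene lower (Srebf2), HLCs minus adult hepatocytes 9 sterol enzymes lower, and HLCs minus ESCs 5 genes higher. Of all 22180 genes, 4058 were then higher and 5147 lower in adult hepatocytes minus ESCs. In HLCs minus adult hepatocytes 3241 were lower, and in HLCs minus ESCs 3221 were higher. With medians centred, HLCs minus ESCs had 1 sterol enzyme higher. The cause was not tested, beyond the threshold itself where no minimum was set.

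With each array left out, HLCs minus ESCs gave 2 to 3 genes higher and 3 to 7 lower (sterol enzymes 1 to 2 higher, fatty acid genes 2 to 5 lower), with a median of -0.22 to 0.19, the upper end without HLC replicate 2 and 0.041 without ESC replicate 2. Adult hepatocytes minus ESCs gave 18 to 20 higher and a median of 1.27 to 1.42, and HLCs minus adult hepatocytes 15 to 22 lower (sterol enzymes 3 to 8, fatty acid genes 8 to 10) and a median of -1.54 to -1.03.

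Signs turned for genes that were not called. In HLCs minus ESCs these were Gpam (-0.020 with quantile normalization, -0.074 with medians centred, -0.097 with the replicate block), Fdps (-0.060) and Fdft1 (-0.0082) with medians centred, Pmvk (0.00098) and Sqle (0.011) with cyclic loess, and Scap (-0.012) with clusters averaged. With 1 array left out the range was -0.18 to 0.23 for Gpam, -0.22 to 0.29 for Fdps, -0.19 to 0.55 for Lss, -0.097 to 0.62 for Fads1, -0.40 to 0.25 for Pmvk and -0.31 to 0.23 for Sqle. In adult hepatocytes minus ESCs they were Elovl6 (-0.26 with quantile normalization, -0.044 with the replicate block, -0.12 to 0.23 with 1 array left out), Acly (0.17 with cyclic loess) and Mvd (-0.017 to 0.21 with 1 array left out). In HLCs minus adult hepatocytes it was Fdft1 (0.055 with quantile normalization).

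Deviations of same-numbered samples from their group means had correlations across genes of -0.19 to 0.14, against -0.25 to 0.23 for other pairs. With 3 or 4 arrays a group, these values cannot decide whether same-numbered samples were paired. The labels do not say so either. With the replicate number as a block, 18 genes rose in adult hepatocytes over ESCs, with Acaca at 0.99 not called, and 17 fell in HLCs relative to adult hepatocytes.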
